A study of Mus musculus with 4 samples.

Results

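The genes described here encode 2 kinds of brake on the ERK pathway: the dual-specificity phosphatases Dusp1, Dusp4, Dusp5 and Dusp6, and members of the Sprouty family, namely the Sprouty genes Spry1, Spry2 and Spry4 and the related genes Spred1, Spred2 and Spred3. Members were found by gene symbol, taking array rows with 1 symbol and, for Dusp6, which had 2 such rows, the row with the higher mean. All 10 were measured, out of 22180 genes in all. The genes belong to known families, but the set was proposed with earlier results of these arrays in view. Its member Dusp4 was chosen by its rise with decitabine on these arrays, so its values describe that choice and no p-value is given for it.

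The cells were BR5FVB1-Akt, a line of mouse ovarian cancer, and their RNA was read with Mouse Gene 2.0 ST arrays of Affymetrix, which read most exons of each transcript. There were 2 control arrays and 2 arrays of cells given 10 uM decitabine for 72 h, and both groups were the same line grown in serum-containing medium. Decitabine is a cytidine analogue that traps DNA methyltransferases on replicating DNA and so lowers DNA methylation. The labels give no genotype for the line beyond its name, no vehicle for the controls and no account of how the biological replicates were cultured. The p-values set the difference between groups against the spread between arrays of a group, estimated with help from all genes. Whether that spread covers independent cultures is not known.

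ERK is the last kinase of a chain that runs from growth factor receptors through RAS, RAF and MEK. Many of the genes that active ERK switches on encode its own inhibitors, and this negative feedback is why their mRNAs are widely used as a readout of the pathway. The phosphatases act at the bottom of the chain, where they remove phosphate from ERK itself or from the related kinases JNK and p38. Sprouty and Spred proteins act further up, between the receptor and RAF. The arrays measured mRNA, not kinase activity or DNA methylation, and in bulk RNA a change in the share of cells that express a gene and a change per cell cannot be told apart.

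Promoter sequences are shown for Dusp1, Dusp6 and Spry2, which had the next largest fold changes after Dusp4, and for Dusp5, which lay lower with decitabine. RefSeq promoter windows (GRCm38.p6) were read for 8 of the 10 genes. No window was read for Dusp4 or Spry4, so their promoters are not described. Each sequence is the 250 bases before the annotated start, 5′ to 3′ on the gene's strand, from chr17:26508473-26508722 (minus strand) for Dusp1, chr19:53528895-53529144 (plus strand) for Dusp5, chr10:99262981-99263230 (plus strand) for Dusp6 and chr14:105896820-105897069 (minus strand) for Spry2. Capitals mark matches, on either strand, to TGACGT, the core of the cyclic AMP response element bound by CREB and ATF factors, and to the CArG box, bound by serum response factor.
Dusp1: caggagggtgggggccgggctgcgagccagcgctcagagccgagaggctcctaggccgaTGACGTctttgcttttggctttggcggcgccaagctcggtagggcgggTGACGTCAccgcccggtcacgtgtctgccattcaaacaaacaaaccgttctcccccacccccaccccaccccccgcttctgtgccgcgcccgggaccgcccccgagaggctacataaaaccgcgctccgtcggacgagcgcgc
Dusp5: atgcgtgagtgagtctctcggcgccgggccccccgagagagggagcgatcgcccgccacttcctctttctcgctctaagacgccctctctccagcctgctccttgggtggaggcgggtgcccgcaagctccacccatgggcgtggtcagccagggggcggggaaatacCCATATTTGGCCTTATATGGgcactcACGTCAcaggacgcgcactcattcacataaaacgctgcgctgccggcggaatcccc
Dusp6: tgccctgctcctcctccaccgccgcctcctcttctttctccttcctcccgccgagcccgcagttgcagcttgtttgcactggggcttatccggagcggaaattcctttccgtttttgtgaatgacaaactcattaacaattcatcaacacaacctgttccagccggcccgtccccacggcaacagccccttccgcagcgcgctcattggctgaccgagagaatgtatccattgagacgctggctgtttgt
Spry2: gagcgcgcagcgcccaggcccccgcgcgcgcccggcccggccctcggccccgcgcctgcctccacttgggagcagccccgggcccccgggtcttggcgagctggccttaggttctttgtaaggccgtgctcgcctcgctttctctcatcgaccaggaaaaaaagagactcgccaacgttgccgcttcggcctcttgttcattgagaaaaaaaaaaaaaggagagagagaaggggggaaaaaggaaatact

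The Dusp1 window held the full palindromic element TGACGTCA, 136 to 143 bases before the start, which 1.55% of the 32851 windows of this length hold. A further TGACGT lay 186 to 191 bases before the start, and 6.47% of windows hold at least 1 TGACGT, counting those inside the longer element. In the Dusp5 window 2 CArG boxes lay side by side, CCATATTTGG 73 to 82 and CCTTATATGG 63 to 72 bases before the start, followed by a reversed TGACGT at 51 to 56 bases. A CArG box was found in 1.47% of windows, and among the 8 genes whose windows were read only Dusp5 had one. Spred2 held 1 reversed TGACGT, 47 to 52 bases before its start.

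Further searches, not marked by capitals, were made for the AP-1 motif TGANTCA (6.75% of windows), the E-box CACGTG (6.02%) and the ETS motif GGAAGT (19.7%). TGANTCA matched in none of the 8, CACGTG in Dusp1 and GGAAGT in Dusp5 and Spred2, while Dusp6, Spry1, Spry2, Spred1 and Spred3 held no match to any of the 6 motifs. CpG dinucleotides, the sites that DNA methyltransferases act on, numbered 31 for Spred1, 28 for Dusp1, 23 for Spry1 and for Spry2, 21 for Dusp5, 16 for Dusp6, 12 for Spred2 and 6 for Spred3, against a median of 6 over all windows. These letter matches describe the windows and were set against no measurement of binding or methylation.

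With decitabine the mRNA of 3 of the 4 phosphatases lay higher than in the controls, by 1.23 for Dusp4, 0.62 for Dusp1 and 0.60 for Dusp6 on the log2 scale, whereas Dusp5 lay 0.19 lower. The 3 Sprouty genes of the set lay 0.28 to 0.58 higher, and the Spred genes between −0.18 and 0.03. Genes were tested with limma, which borrows the estimate of spread across genes, with Benjamini-Hochberg adjustment over all 22180 and a threshold of adjusted p under 0.05. Of the 10 genes 1 passed as higher, Dusp4, and 0 as lower, beside 0.131% and 0.0135% of all genes. With any 1 array left out 0 passed. Since that gene was picked for its rise, nothing is read from the count. Among the other 9, 0 passed, while 3 lay above and 0 below the controls by unadjusted p (under 0.05), as 7.34% and 6.97% of all genes did. Their median log2 fold change was 0.28, beside 0.00 over all genes.

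**Figure D1:**
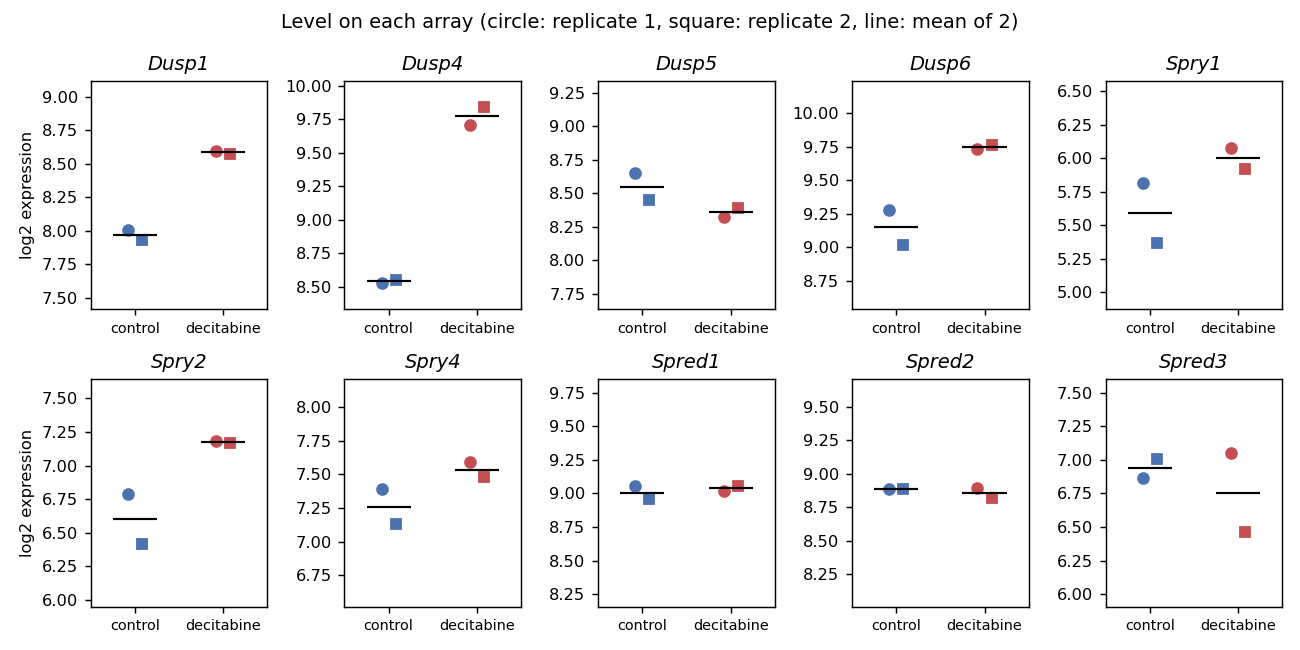
Level of each of the 10 genes (log2 expression, vertical axis, same span in every panel) on the control arrays (blue) and decitabine arrays (red), with circles for replicate 1, squares for replicate 2 and a line at the group mean. The decitabine arrays lie above both control arrays in Dusp1, Dusp4, Dusp6, Spry1, Spry2 and Spry4, below them in Dusp5, and overlap with them in the 3 Spred genes.

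Dusp4, also called MKP-2, encodes a nuclear phosphatase that acts on ERK and on JNK. Its row (17500535) read 8.53 and 8.55 in the controls and 9.70 and 9.84 with decitabine. The 2 controls were within 0.03 of each other, and both decitabine arrays stood more than 1 unit above them. The log2 fold change was 1.23 ± 0.10 (SE, 2 arrays per group), a 2.35-fold difference. When 1 array was left out its log2 fold change stayed between 1.16 and 1.30.

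Dusp1, or MKP-1, encodes a nuclear phosphatase with a preference for p38 and JNK over ERK, and is induced quickly by stress and growth factors. Its row (17342642) read 8.01 and 7.93 in the controls and 8.60 and 8.57 with decitabine. The arrays of each group were within 0.07 of each other, and the groups did not overlap. The log2 fold change was 0.62 ± 0.10, with a 95% interval of 0.37 to 0.87, and in limma it did not pass over all genes (adjusted p = 0.126).

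Dusp6, or MKP-3, encodes a cytoplasmic phosphatase selective for ERK. The row used (17236882) read 9.28 and 9.02 in the controls and 9.73 and 9.76 with decitabine. The decitabine arrays were nearly equal and above both controls, which differed by 0.26. Its log2 fold change was 0.60 ± 0.12 (95% interval 0.28 to 0.92, adjusted p = 0.172 in limma). The other Dusp6 row (17547559) read 3.93 and 3.74 on the control and 3.87 and 4.02 on the decitabine arrays, a difference of 0.11, and with the mean of both rows the log2 fold change was 0.35.

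Dusp5 encodes a nuclear phosphatase selective for ERK, the nuclear counterpart of Dusp6 in that respect. Its row (17360348) read 8.65 and 8.45 in the controls and 8.32 and 8.39 with decitabine. The decitabine arrays were both below the controls, by as little as 0.05 between the nearest arrays. The log2 fold change was −0.19 ± 0.12 (adjusted p = 0.523 in limma), and its 95% interval of −0.49 to 0.11 reached neither the estimate for Dusp1 nor that for Dusp6. The difference between these genes was not tested.

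Sprouty proteins dampen signalling from receptor tyrosine kinases to RAS and RAF, and Spry2 is known to bind the adaptor Grb2 and the ubiquitin ligase Cbl. The Spry2 row (17309340) read 6.79 and 6.41 in the controls and 7.18 and 7.17 with decitabine. Both decitabine arrays lay above the controls, which were 0.38 apart. The log2 fold change was 0.58 ± 0.15 (95% interval 0.19 to 0.96, adjusted p = 0.227 in limma).

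Spry1, which restrains receptor signalling in the developing kidney among other tissues, had control values of 5.81 and 5.37 and decitabine values of 6.08 and 5.92 (row 17397170). The groups did not overlap, but the gap between the controls, 0.44, was larger than the fold change of 0.41 ± 0.18 (adjusted p = 0.386 in limma). Spry4 read 7.39 and 7.13 in the controls and 7.59 and 7.48 with decitabine (row 17353957). Its groups were separated by 0.09 at their nearest arrays, and the log2 fold change was 0.28 ± 0.13 (adjusted p = 0.420 in limma). Spry3, a Sprouty gene outside the set that is named after its values were seen, read 9.43 and 9.84 in the controls and 9.28 and 9.37 with decitabine (row 17546246). Both decitabine arrays were below the controls, with a log2 fold change of −0.31 ± 0.16 (adjusted p = 0.458 in limma).

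Spred1 and Spred2 encode membrane-associated relatives of Sprouty, and Spred1 is known for bringing neurofibromin, which switches RAS off, to the membrane. Spred1 read 9.05 and 8.96 in the controls and 9.02 and 9.05 with decitabine (row 17374455). Spred2 read 8.89 in both controls and 8.90 and 8.82 with decitabine (row 17247519). In both genes the groups overlapped. The log2 fold changes were 0.03 ± 0.10 and −0.03 ± 0.10, with 95% intervals of −0.22 to 0.29 for Spred1 and −0.28 to 0.22 for Spred2. Spred3, the third member, read 6.86 and 7.01 in the controls and 7.05 and 6.46 with decitabine (row 17488735). One decitabine array was the highest of the 4 and the other the lowest, so the log2 fold change of −0.18 ± 0.21 has no settled direction.

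**Figure D2:**
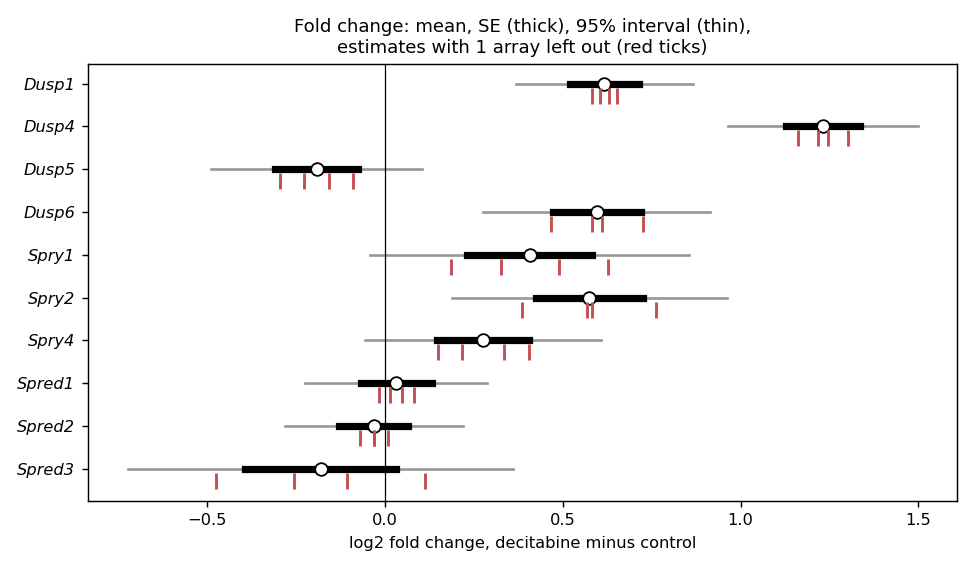
Log2 fold change of each gene, decitabine minus control (horizontal axis), with the limma standard error (thick bar), the 95% interval (thin bar) and the 4 estimates obtained with 1 array left out (red ticks). The estimates for Spry1 run from 0.19 to 0.63 and those for Spred3 from −0.47 to 0.11, while those for Dusp1 stay between 0.58 and 0.65.

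The calls differed between analyses. With an intensity trend in limma, which lets the expected spread depend on the level, Dusp1 (adjusted p = 6.60e-04), Dusp6 (adjusted p = 0.00158) and Spry2 (adjusted p = 0.0206) passed, so that 3 of the 9 genes other than Dusp4 were higher and 0 lower. In that fit 3.68% of all genes were called higher and 3.60% lower. With the test limited to genes above the median level, as all 10 were, the same 3 passed (adjusted p = 0.00974 for Dusp1, 0.0226 for Dusp6 and 0.0432 for Spry2), beside 5.73% of the genes in that test called higher and 5.55% lower. Over all alternatives the adjusted p ranged from 6.60e-04 to 0.571 for Dusp1, from 0.00158 to 0.571 for Dusp6 and from 0.0206 to 0.571 for Spry2. In the other 6 genes apart from Dusp4 no call was made in the reported fit or under any alternative run.

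Both decitabine arrays lay above both control arrays in 5 of the 9 genes other than Dusp4, namely Dusp1, Dusp6, Spry1, Spry2 and Spry4, and below them in 1, Dusp5. Of all genes 23.4% had the first order and 22.5% the second. These genes were chosen with such results in view, so the counts are a description.

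The control arrays differed from each other by more than the decitabine arrays did in 7 of the 10 genes, all but Dusp4, Spred2 and Spred3, and in 45.8% of all genes. Control replicate 1 was above control replicate 2 in 8 of the 10 genes (in Spred2 by only 0.00024), and over all genes in 52.0%. The difference was 0.44 for Spry1, 0.38 for Spry2, 0.26 for Dusp6 and for Spry4 and 0.20 for Dusp5. Over all 22180 genes the median difference was 0.01, and 3.62% of genes had a difference at least as large in that direction as Spry1, 5.46% as large as Spry2, 11.5% as large as Dusp6 and 11.7% as large as Spry4. Between the decitabine arrays the same genes differed by 0.16, 0.01, −0.03 and 0.12. What set the control arrays apart was not tested.

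This gap bears on the size of the fold changes. Against control replicate 1 alone, the log2 fold change was 0.39 for Spry2, 0.19 for Spry1, 0.47 for Dusp6 and 0.15 for Spry4. Against control replicate 2 alone, those of Spry2, Spry1, Dusp6 and Spry4 were 0.76, 0.63, 0.73 and 0.40. Dusp5 was at −0.29 against the first and −0.09 against the second. Dusp1 was at 0.58 against the first and 0.65 against the second, and Dusp4 at 1.25 and 1.22. Among 23 measured genes known to be switched on by ERK, control replicate 1 was above control replicate 2 in 14, with a median difference of 0.05.

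**Figure D3:**
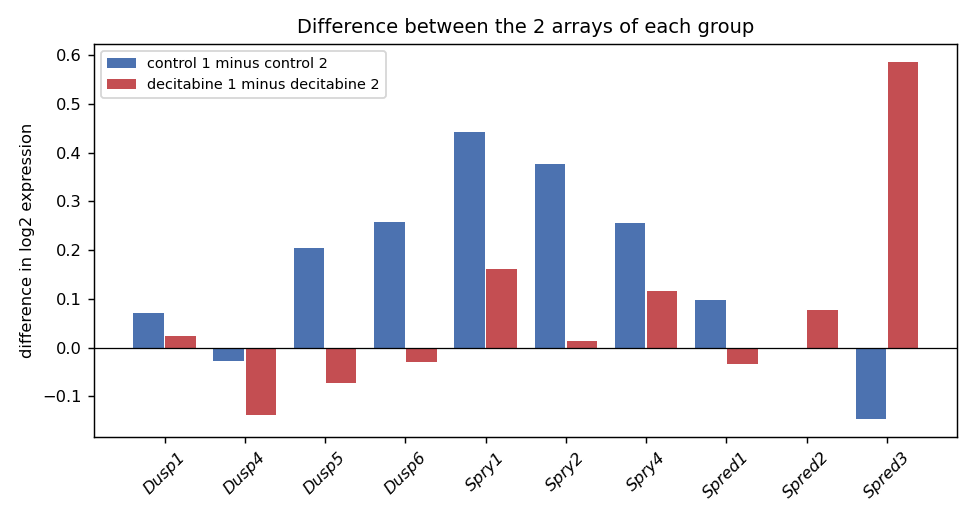
Difference in log2 expression between the 2 arrays of a group (vertical axis) for each of the 10 genes, control 1 minus control 2 in blue and decitabine 1 minus decitabine 2 in red. The control difference is above 0.2 in Dusp5, Dusp6, Spry1, Spry2 and Spry4, and the largest decitabine difference is the 0.59 of Spred3.

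Phosphatases outside the group were taken from a list of 9 genes for enzymes that act on ERK, JNK or p38 or are related to those that do. Over all genes 0 of the 9 passed in limma, while 4 lay above and 0 below the controls by unadjusted p (under 0.05). Their median log2 fold change was 0.21. Dusp8, a phosphatase of JNK and p38, read 6.16 and 5.98 in the controls and 6.79 and 6.56 with decitabine, a difference of 0.61 ± 0.13 (adjusted p = 0.180). Dusp3, a small phosphatase also called VHR, was at 0.40 ± 0.10 and Dusp14 at 0.39 ± 0.11. These 3 passed as higher with the intensity trend (adjusted p = 0.0152 for Dusp8, 0.00638 for Dusp3 and 0.0392 for Dusp14). For this and the following lists, the shares over all genes were 7.34% above and 6.97% below by unadjusted p. With the intensity trend 3.68% of all genes passed as higher and 3.60% as lower, and without it 0.131% and 0.0135%.

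Of 18 genes for other brakes on receptor, RAS or ERK signalling 17 were measured. In limma 0 passed, with 4 above and 0 below the controls by unadjusted p (under 0.05) and a median of 0.08. Lrig1, a membrane protein that promotes the loss of ERBB receptors, was at 0.47 ± 0.13 and Pea15a, which holds ERK in the cytoplasm, at 0.30 ± 0.11, and these 2 passed with the intensity trend (adjusted p = 0.0141 and 0.0359). Errfi1, a feedback inhibitor of EGFR, was at 0.34 ± 0.12 and did not pass in either fit (adjusted p = 0.325 and 0.102).

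In the chain that these brakes act on, Map2k1 and Map2k2, the MEK genes just above ERK, had fold changes near 0. Of 20 genes for RAS, RAF, MEK and ERK and their scaffolds 15 were measured. Over all genes 0 passed in limma, with 3 above and 0 below the controls by unadjusted p (under 0.05) and a median of 0.04. Map2k1 (−0.01 ± 0.10, 95% interval −0.26 to 0.24) and Map2k2 (−0.11 ± 0.11, 95% interval −0.38 to 0.16) both had intervals that held 0. Map2k5, which encodes the kinase of ERK5 and is named after its values were seen, had the lowest value of the list (−0.41 ± 0.19, adjusted p = 0.410).

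Genes with the smallest p-values in the chain were the scaffold gene Iqgap1 (0.69 ± 0.10) and the RAS relatives Mras (0.68 ± 0.10) and Rras2 (0.47 ± 0.11). All 3 passed as higher with the intensity trend (adjusted p = 1.18e-04, 5.19e-04 and 0.00262). Iqgap1 read 8.86 and 8.88 in the controls and 9.58 and 9.54 with decitabine. Its groups were thus far apart compared with the spread within them.

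Receptors and adaptors upstream of RAS had a median of −0.05 over 19 measured genes of 20, with 0 past the threshold and 1 above and 2 below the controls by unadjusted p (under 0.05). The receptor genes Erbb2 (−0.31 ± 0.10), Pdgfra (−0.28 ± 0.10) and Axl (0.32 ± 0.12) had the smallest p-values. With the intensity trend Axl passed as higher (adjusted p = 0.0223) and Pdgfra as lower (adjusted p = 0.00976). Of 11 ERK effector kinases and ETS factors 8 were measured, with 0 past the threshold, 0 above and 1 below the controls by unadjusted p (under 0.05) and a median of −0.18. The lower one was Rps6ka5, or MSK1, at −0.45 ± 0.11.

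Genes that ERK activity is known to switch on had positive log2 fold changes in 20 cases and negative ones in 3, while 50.7% of all genes were positive. Of 25 such genes 23 were measured, and 2 rose over all genes in limma and 0 fell, beside 0.131% and 0.0135% of all genes. The 2 were the ephrin receptor gene Epha4, at 1.49 ± 0.10 (adjusted p = 0.0401), and Myc, at 1.48 ± 0.12 (adjusted p = 0.0442). Both were known from earlier results of these arrays when the list was written. The whole list was chosen with such results known, so its counts are a description and no independent evidence of its direction. By unadjusted p (under 0.05) 11 lay above and 2 below the controls, beside 7.34% and 6.97% of all genes. The median of the list was 0.30. With the intensity trend 10 were higher and 0 lower, beside 3.68% and 3.60% of all genes. The calls of Epha4 and Myc were both lost with the replicate block, with all rows tested and with any 1 array left out, and 1 of them with robust eBayes.

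Plaur, the urokinase receptor gene, was at 0.92 ± 0.10 (adjusted p = 0.0762), with control arrays at 7.08 and 7.12 and decitabine arrays at 8.08 and 7.95. Etv4, an ETS factor gene that often moves with Dusp6 and the Sprouty genes, read 5.95 and 6.03 in the controls and 6.79 and 6.60 with decitabine, a difference of 0.71 ± 0.11 (adjusted p = 0.126). Its relative Etv5 was at 0.26 ± 0.18 and Phlda1 at 0.16 ± 0.11, and neither passed with the intensity trend (adjusted p = 0.405 and 0.351). The 3 genes of the list with negative values, named after their values were seen, were Fosb (−0.48 ± 0.12), Fos (−0.47 ± 0.17) and Ier2 (−0.35 ± 0.17). In neither fit did they pass.

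**Figure D4:**
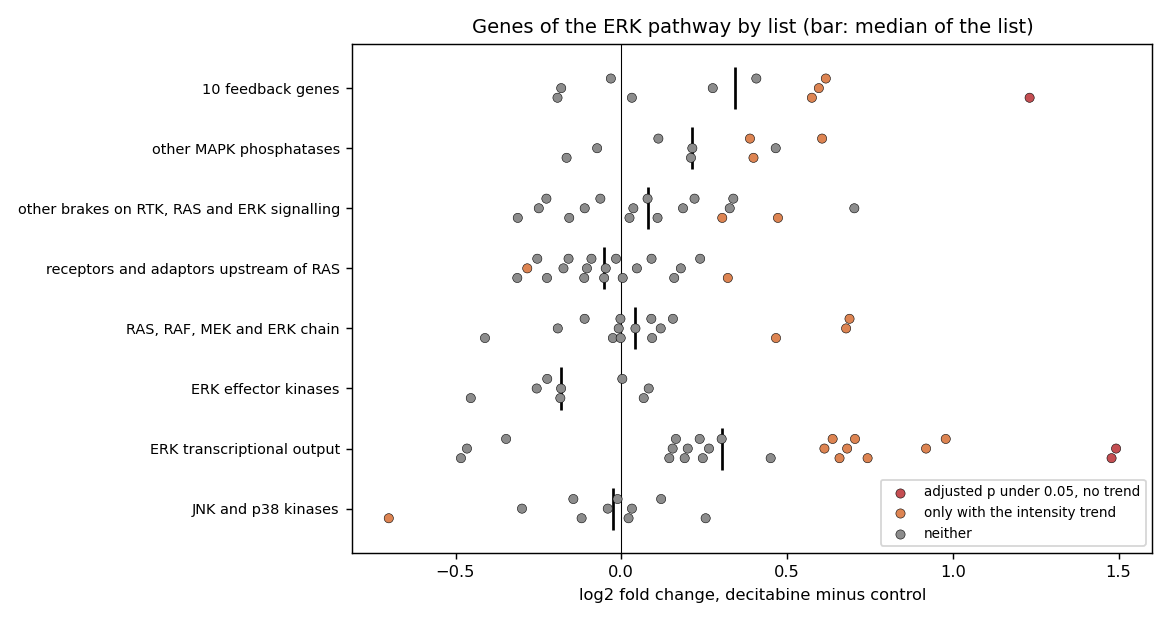
Log2 fold change, decitabine minus control (horizontal axis), of the 10 feedback genes and of 7 lists of ERK pathway genes, 1 point per gene with a bar at the median. Red points passed an adjusted p of 0.05 in limma, orange points passed with the intensity trend only, and the medians of the 7 lists run from −0.18 for the effector kinases to 0.30 for the ERK output genes. That of the feedback genes is 0.34 with Dusp4, which was picked for its rise, and 0.28 without it.

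Markers of cell types were read on the same arrays, on which the median gene was at 5.22 to 5.29. The mesothelial and ovarian surface genes Wt1 and Upk3b were at 10.53 to 10.86 and 11.77 to 11.99 over the 4 arrays, and the stromal genes Dcn and Vim at 11.74 to 11.82 and 11.56 to 12.03. The keratin gene Krt18 was at 9.22 to 9.57, Epcam at 4.62 to 4.99 and Pax8 at 3.46 to 3.62, and 4 of the 13 ovarian surface and epithelial markers lay below the median level. The summed level of 13 ovarian surface and epithelial markers was 89.5 to 89.9 on the control and 91.7 to 92.4 on the decitabine arrays, and that of 10 fibroblast and mesenchymal markers 90.3 on both control arrays and 92.2 to 92.8 with decitabine. The summed level of 13 leukocyte markers was 50.3 to 51.4 on the control and 51.8 to 53.9 on the decitabine arrays. That of 7 endothelial markers was 29.0 to 29.7 and 30.6 to 30.7. Below the median level lay 11 of the 13 leukocyte and 6 of the 7 endothelial markers, so these 2 sums rest mostly on low rows. Among leukocyte markers Cd68 was at 6.56 to 7.08, Csf1r at 5.38 to 5.80, Ptprc, which marks all leukocytes, was at 3.01 to 3.24 and Cd3e at 3.25 to 3.54, while the endothelial genes Pecam1 and Kdr were at 5.89 to 6.12 and 4.26 to 4.78. Each of these sums was higher on both decitabine arrays than on both control arrays. By unadjusted p (under 0.05) in limma, 4 epithelial, 3 mesenchymal, 2 leukocyte and 2 endothelial markers lay above and 1, 1, 0 and 0 below the controls, and 0 passed over all genes. Over all genes 7.34% lay above and 6.97% below by unadjusted p. With the intensity trend 4, 3, 1 and 0 markers passed as higher and 2, 1, 0 and 0 as lower, beside 3.68% and 3.60% of all genes. Of the markers called higher in that fit, 3 named after their values were seen were Thy1 at 1.48 ± 0.17, Msln at 0.86 ± 0.10 and Acta2 at 0.72 ± 0.10 (adjusted p = 2.39e-04, 4.66e-04 and 3.54e-05 in limma with the trend). The markers called lower were Wt1 at −0.28 ± 0.10, Upk3b at −0.19 ± 0.10 and Pdgfra at −0.28 ± 0.10 (adjusted p = 0.0106, 0.0254 and 0.00976 in limma with the trend). The part of these markers in the fold changes above was not tested.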

How the data were processed

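Expression was measured on 4 arrays, 1 per sample, and the authors deposited 1 value per array row, read here as log2 expression from its range of 0.55 to 13.3. Summarisation, background correction, normalization and log base are not given in the sources used here, and the fold changes rest on that reading. No background level was set.

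Of 41345 rows, 23521 carried 1 gene symbol, and the row with the highest mean was kept for each of 22180 genes. Groups come from the sample titles. The linear model of limma 3.58.1 (R 4.3.3), with group as the only term and empirical Bayes variances without trend, gave two-sided tests, log2 fold changes, standard errors and Benjamini-Hochberg adjusted p-values. The prior had 3.07 degrees of freedom. With 2 arrays per group an exact permutation test cannot go below 0.333, and the number of arrays limits precision. The fit was tested on simulated data. Correlations between arrays over genes were 0.990 to 0.995.

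Members and lists were chosen with earlier results of these data known. Named were all members, genes past the threshold and the 3 smallest p-values of each list, Map2k1, Map2k2, Etv4, Etv5 and Phlda1, the 5 genes nearest to Dusp4, and the 2 genes with the highest mean of each marker list. Alternatives were quantile normalization, median centring, 2 level filters, an intensity trend, robust eBayes, the replicate block, averaging the rows of each gene, all rows and omission of each array. Figures were drawn with matplotlib 3.10.9.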

Additional observations from a re-analysis of the deposited data

How the results depend on the processing

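Directions of all 10 members held under the 13 alternatives run, except that with 1 array left out Spred1 ranged from −0.017 to 0.081, Spred2 from −0.070 to 0.0075 and Spred3 from −0.47 to 0.11. The reported fit called 32 genes, 1 of them a member. With centred arrays it called 51, above the 25th percentile of level 215, above the median level 1251, with the intensity trend 1615 and with robust eBayes 18. With the replicate block, all rows tested, or any 1 array left out 0 genes passed, with smallest adjusted p-values in limma of 0.106, 0.282 and 0.132 to 0.566, against 3174 genes with an unadjusted p under 0.05 in the reported fit. With an array left out, the lone array of its group was assumed to vary like the other group.

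Of the members, Dusp4 included, 4 passed above the median level and with the intensity trend, and 0 with robust eBayes, the replicate block, all rows tested or an array left out. The replicate numbers shared by the groups are not known to pair the arrays, and deviations of same-numbered arrays had a correlation of −0.02 over genes.

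The list of ERK transcriptional output had 2 calls, which became 6 above the 25th percentile and 11 above the median level (10 higher and 1 lower). It had 10 with the intensity trend, 1 with robust eBayes and 0 with the replicate block or all rows. The RAS to ERK chain had 2 calls above the 25th percentile. Above the median level the other MAPK phosphatases had 3, the other brakes 1, the chain 3, the effector kinases 1 and the JNK and p38 kinases 1. With the intensity trend the phosphatases had 3, the brakes 2, the receptors and adaptors 2, the chain 3 and the JNK and p38 kinases 1. In the reported fit each of these lists but the output list had 0 calls. The causes were not tested. Medians moved by more than the spread between replicates in 7 instances.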

Other observations

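The 5 genes whose 4 values, taken relative to the control mean, lay nearest to those of Dusp4 among 11089 candidates above the median level were Adamts5, a protease of the extracellular matrix, the neutrophil attractant Cxcl1, the actin-binding gene Enc1, Fetub, a secreted protease inhibitor, and the tetraspanin gene Tspan18. Their Euclidean distances over the 4 arrays were 0.09 for Adamts5, 0.10 for Cxcl1, 0.14 for Enc1, 0.16 for Fetub and 0.17 for Tspan18. Adamts5 read 5.33 and 5.28 in the controls and 6.53 and 6.56 with decitabine. Likeness over so few arrays says little beyond a similar size of difference, 1.14 to 1.30 in these genes.

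The last list held the JNK and p38 kinases, on which Dusp1, Dusp4 and Dusp8 also act, together with kinases upstream of JNK and p38. Its median log2 fold change was −0.03 over 10 measured genes of 11. In limma 0 passed, with 0 above and 1 below the controls by unadjusted p (under 0.05). That gene was Map2k6, an upstream kinase of p38, which read 6.54 and 6.43 in the controls and 6.03 and 5.54 with decitabine, a difference of −0.70 ± 0.18. It passed as lower with the intensity trend (adjusted p = 0.0236). Mapk11, a p38 isoform, was at 0.25 ± 0.10 and Map2k4, which activates JNK, at 0.12 ± 0.09, and neither passed in either fit.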
